A study of Zea mays with 24 samples.

Results

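The comparison set 3 maize endosperm libraries whose deposited names read ZmICE1a mutant without JA against 3 whose names read wild type without JA, 6 of the 24 libraries of the series. Members were chosen by those names alone, with the zero treatment code read as no JA (jasmonic acid). For the wild type libraries the name, the title and the genotype, stage and treatment fields all gave wild type without JA. For the mutant-named libraries the labels conflicted: the name gave mutant without JA, the title gave wild type with JA, and the fields gave mutant with JA. The same difference between the same 6 libraries is therefore one of genotype by name, one of JA by title, and one of both at once by field. No library was relabelled, and the groups are called here by their deposited names.

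The other groups served to set these values in place. Another 3 libraries of the JA experiment carried the mirror conflict, being wild type with JA by name, mutant without JA by title and wild type without JA by field. The last 3 were mutant with JA by every label. A separate genotype experiment held 3 wild type and 3 ZmICE1a mutant libraries given a control treatment, with no conflict in any label. All libraries came from endosperm at 15 days after pollination, each from 5 to 10 pooled endosperms, read by MP3RNA-seq, which sequences the 3′ ends of transcripts. Neither the mutant allele and inbred background nor the dose and duration of JA could be learned from the labels. Whether the replicates of a group were grown or pooled independently is not stated either, and p-values then reflect only library-to-library spread, which may be technical.

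ZmICE1a is a maize relative of ICE1, a basic helix-loop-helix transcription factor known in Arabidopsis for its part in cold responses and in stomatal development. Endosperm is the tissue of the kernel that stores starch and protein for the embryo, and it fills rapidly at the stage sampled. JA is a hormone of wound and defence responses that acts by removing repressor proteins from transcription factors. Mitochondria keep a small genome of their own, which encodes core subunits of the respiratory chain, subunits of the ATP synthase, some ribosomal proteins and the organelle's ribosomal RNAs.

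The mutant-named libraries were shallower than the wild type libraries. Total counts were 1353622, 992627 and 839322 in mutant-named replicates 1, 2 and 3, and ran from 1660718 to 1917363 in the 3 wild type libraries. Mutant-named replicates 1 and 2 also stood apart in composition: features with ENSRNA identifiers, which the files do not name, took 10.7%, 6.84% and 3.33% of counts in replicates 1, 2 and 3, against 1.13% to 3.61% in wild type. In the other 6 JA libraries the same share was 2.02% to 3.44%. The genotype experiment was deeper, with 3109928 to 4875478 counts per library and an ENSRNA share of 0.375% to 0.552%. None of the nuclear gene models could be matched to a name, so the level of ZmICE1a itself is not given, and the endosperm label could not be checked against its markers.

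Endosperm of the mutant-named libraries differed from untreated wild type at many transcripts, in near-equal numbers up and down. Of 11265 features tested with edgeR's quasi-likelihood test, 586 passed a Benjamini-Hochberg adjusted p under 0.05, which is 5.2%. Of these, 309 (2.74% of those tested) were higher and 277 (2.46%) lower in the mutant-named libraries. The median absolute log2 fold change of the called features was 0.82, and a log2 difference of 1 or more was reached by 117 of the higher and 111 of the lower features. The groups of 3 did not overlap at 2888 features, or 25.6% of those tested. By class, 264 nuclear gene models were higher and 275 lower, out of 10993 tested. Among the unnamed RNAs the split was uneven, with 37 of 238 ENSRNA features higher and 2 lower. The total of 586 became 300, 359 and 350 when wild type replicates 1, 2 and 3 were left out in turn, and 363 for mutant-named replicate 1.

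Among transcripts of the mitochondrial genome the calls went up only. How well reads from transcript 3′ ends measure the level of organelle transcripts was not tested. Of the 175 mitochondrial protein genes and open reading frames in the files, 26 passed the low-count filter. In 25 of these 26 the estimate was positive, 4 were called higher, where 2.74% of all features were, and none lower, and the median log2 fold change was 0.59, against -0.00 over all features tested. At 11 of the 26 every mutant-named library lay above every wild type library, while the groups did not overlap in either direction at 25.6% of all features. Together the mitochondrial protein genes took 0.171%, 0.220% and 0.109% of counts in mutant-named replicates 1, 2 and 3 and 0.0912% to 0.122% in wild type. Replicates 1 and 2, which also had the high ENSRNA shares, lay above wild type and replicate 3 lay within its range. The 4 calls became 0 when replicate 1 of either group was left out, and 1 when wild type replicate 3 or mutant-named replicate 2 was.

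The genes called higher belonged to several complexes of oxidative phosphorylation. cox1 encodes the catalytic core subunit of cytochrome c oxidase. Its levels were 10.5, 21.4 and 10.5 CPM (counts scaled to the library total) in wild type and 29.6, 33.8 and 32.4 CPM in the mutant-named libraries. The groups did not overlap, which was a condition for naming a gene in this comparison. The log2 fold change was 1.17 ± 0.31 (SE, n = 3 and 3, edgeR adjusted p = 0.041). cox3, another subunit of the same oxidase, stood at 35.8, 51.9 and 45.6 CPM in wild type and 80.5, 64.6 and 73.0 CPM in the mutant-named libraries, again without overlap. Its log2 fold change was 0.71 ± 0.15 (edgeR adjusted p = 0.014). nad4, a proton-pumping subunit of complex I, was at 33.9, 38.9 and 39.1 CPM in wild type and at 84.3, 83.5 and 42.9 CPM in the mutant-named libraries. Replicate 3, the shallowest, was the lowest of the mutant-named values but still lay above wild type. The log2 fold change of nad4 was 0.93 ± 0.21 (edgeR adjusted p = 0.021). atp4, a subunit of the stalk that holds the ATP synthase together, ran from 41.5 to 48.0 CPM in wild type and from 54.5 to 79.7 CPM in the mutant-named libraries, with a log2 fold change of 0.68 ± 0.15 (edgeR adjusted p = 0.017).

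The ribosomal RNAs of the mitochondrion moved the same way. rrn26, the large-subunit ribosomal RNA, was at 1137, 1467 and 1145 CPM in wild type and 2412, 2521 and 1756 CPM in the mutant-named libraries. It did not overlap between groups, and its log2 fold change was 0.84 ± 0.15 (edgeR adjusted p = 0.0041). It was the only one of these genes still called when any 1 of the 6 libraries was left out, with adjusted p at most 0.025. rrn18, the small-subunit ribosomal RNA, was at 401, 527 and 460 CPM in wild type and 845, 1082 and 523 CPM in the mutant-named libraries, so replicate 3 fell inside the wild type range. Its log2 fold change was 0.82 ± 0.20 (edgeR adjusted p = 0.029). cox1 and nad4 each kept their call in 1 of the 6 leave-one-out fits, atp4 and rrn18 in 2 and cox3 in 4.

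By list, the mitochondrial genes tested were few. Complex I had 2 members tested and 1 called higher, the group of complexes III and IV had 3 tested and 2 called higher, and the ATP synthase had 2 tested and 1 called higher. Neither of the 2 tested members for cytochrome c maturation was called, and of 9 tested members of the mitochondrial ribosome, ribosomal RNAs included, 2 were called higher. No member of these lists was called lower. Over all features 2.74% were called higher and 2.46% lower. Open reading frames with nearly equal values, such as orf140-a and orf101-a, are uncertain, because the way shared reads were assigned is not known.

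Higher mitochondrial transcripts were also measured in the wild type-named JA libraries. Against the same untreated wild type, 5 of the 26 mitochondrial genes were called higher and none lower, where 1.77% and 0.959% of all features were, with a median log2 fold change of 0.55. In these libraries cox3 reached 97.2 to 105.9 CPM and atp4 87.5 to 98.1 CPM, above every mutant-named value of the same gene. Both comparisons share the untreated wild type libraries, which were the deepest of the experiment, and the part of depth in these values was not tested. The mutant JA libraries were not tested against untreated wild type. They stood at 102 to 136 CPM for cox3 and 84.8 to 111 CPM for atp4, above every untreated wild type value. Mitochondrial protein genes took 0.131% to 0.224% of their counts. Higher values than untreated wild type were therefore not particular to the mutant-named libraries. The genotype experiment shares no library with the JA experiment. Of 23 mitochondrial protein genes tested there none was called by edgeR, where 6.19% of all features were. An unadjusted edgeR p under 0.05 was reached by 5 of the 23, and by 3432 of all 17841 features tested. The median log2 fold change of the 23 was 0.26. Estimates were positive for 18 of the 23, beside 8700 of 17537 nuclear gene models.

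**Figure D1:**
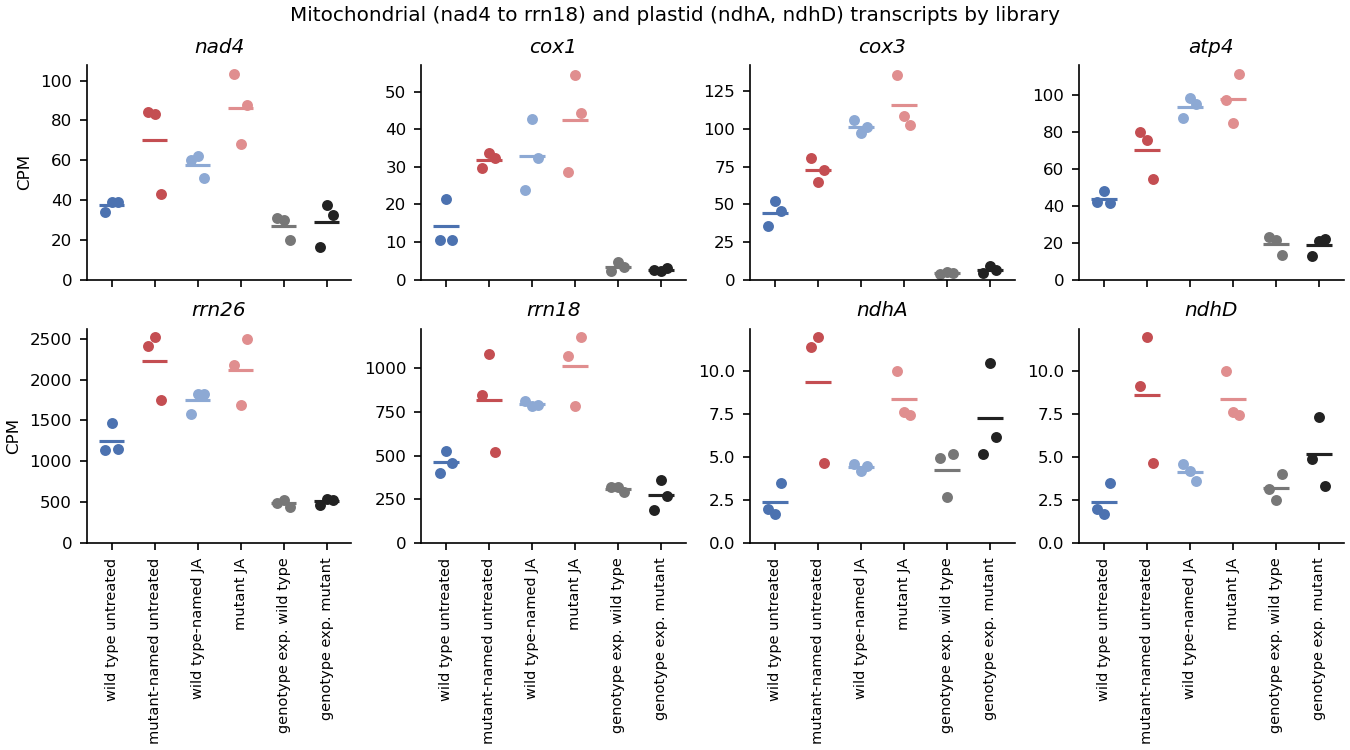
CPM in every library for the organelle genes described, with 1 point per library and a line at the mean of 3; groups carry their deposited names, so that mutant-named untreated is titled wild type with JA and wild type-named JA is titled mutant without JA. For cox3 and atp4 the untreated wild type libraries are the lowest of the JA experiment, while the genotype experiment shows no call in either gene.

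Plastid transcripts were too scarce to follow as a class. Only 2 of 114 plastid protein genes passed the filter, ndhA and ndhD, which encode subunits of the plastid NADH dehydrogenase-like complex of cyclic electron flow. ndhA was at 1.99, 1.69 and 3.50 CPM in wild type and 11.4, 11.9 and 4.64 CPM in the mutant-named libraries, a log2 fold change of 1.97 ± 0.42 (edgeR adjusted p = 0.013). ndhD had the same values in wild type and 9.11, 11.9 and 4.64 CPM in the mutant-named libraries, with a log2 fold change of 1.84 ± 0.42 (edgeR adjusted p = 0.02). Each kept its call in 2 of the 6 leave-one-out fits. The 2 genes had equal values in most of these libraries, with 13 counts each in wild type and 31 and 28 in the mutant-named libraries. Plastid features that missed the filter, such as ccsA, psaC and ndhH, also had 13 counts in wild type, and 27 or 28 in the mutant-named libraries. None of these can be taken as separate observations, and whether they were counted from the same reads is uncertain. The number of plastid genes called was 0 without wild type replicate 1 or 2 or mutant-named replicate 1 or 2, and 19 without replicate 3 of either group. The 19 had the same or nearly the same values and are not separate observations either. With the deeper libraries of the genotype experiment 8 members of the same complex were tested and none was called by edgeR. ndhE, ndhF, ndhG and ndhI had the same or nearly the same counts in each group, so the 8 are not separate observations. There ndhA had a log2 fold change of 0.79 ± 0.31 (adjusted p = 0.15).

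Among the ENSRNA features the median log2 fold change was 1.02, beside -0.00 over all features tested. The values were uneven within both groups. ENSRNA049478584 was at 13.4, 53.6 and 149 CPM in wild type and 4982, 4357 and 150 CPM in the mutant-named libraries, where replicate 3 stood next to the highest wild type value. Its log2 fold change was 5.46 ± 1.05 (edgeR adjusted p = 0.0069). ENSRNA049478891 was at 2.99, 104 and 102 CPM in wild type and 2313, 307 and 1542 CPM in the mutant-named libraries, a log2 fold change of 4.32 ± 0.87 (edgeR adjusted p = 0.009). The groups did not overlap for either feature, as the rule for naming them required. Without mutant-named replicate 1 the number of ENSRNA features called higher was 20 in place of 37, and it was 22 without wild type replicate 1. With every ENSRNA feature left out of the fit, 820 features were called, with 9 mitochondrial protein genes called higher in place of 4.

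The nuclear gene models with the largest falls were low-count genes. Zm00001d038913 had no count in any mutant-named library and stood at 19.4, 13.5 and 14.6 CPM in wild type. With 88 counts against 0, and a floor of 3 counts over the group, it was at least 17.0-fold lower (edgeR adjusted p = 0.00018). It was also low in the mutant JA libraries, at 1.25 to 3.80 CPM, and stood at 10.1 to 12.6 CPM in the wild type-named JA libraries. The 6 libraries of the genotype experiment held at most 0.206 CPM of it, and it was not tested there. Zm00001d042140 had 91 counts in wild type and 3 in the mutant-named libraries, a ratio of 17.6 (exact 95% binomial interval 5.83 to 86.9, for counting error alone). It was at 17.4, 13.5 and 18.7 CPM in wild type and at 1.52, 0 and 1.16 CPM in the mutant-named libraries (edgeR adjusted p = 0.0021).

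The genotype experiment offered a reference for a ZmICE1a difference that no label disputes. There 1104 of 17841 features were called by edgeR, or 6.19%, with 576 (3.23%) higher and 528 (2.96%) lower in the mutant and a median absolute log2 fold change of 0.47 among those called. The count was 702 without wild type replicate 1 and 701 without mutant replicate 2 of that experiment. Of the 1104, 888 were also tested in the JA experiment, where 10886 features were tested in both. Of the 888, 122 were called between mutant-named and wild type libraries, 106 in the same direction and 16 in the opposite one. The 106 comprised 61 higher and 45 lower, and made up 11.9% of the genotype list and 19.5% of the 544 features called here. Among genotype-called features 13.7% were called in the mutant-named comparison, against 5.00% of all features tested in both. The share called also rose with level, and these shares were not matched for level. The 106 became 70 when untreated wild type replicate 3 was left out, and 69 for wild type replicate 1 of the genotype experiment.

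The direction of change in these genes was also compared over all of them. Without regard to calling, 73.5% of the 888 features had the same sign in the mutant-named comparison as in the genotype experiment, beside 57.3% of all features tested in both. For the wild type-named JA libraries against untreated wild type, 307 features or 2.73% were called, 199 (1.77%) higher and 108 (0.959%) lower. There 39 of the 888 were called in the same direction and 16 in the opposite one, and 56.6% had the same sign beside 52.3% of all features. Calls in either direction were 6.19% of the genotype-called features in this comparison, against 2.48% of all features tested in both. Leaving out 1 library gave 154 to 194 called features and 18 to 38 shared in direction. Pearson's r across the 888 features, a description across genes that are not independent, was 0.42 for the mutant-named libraries and 0.09 for the wild type-named JA libraries. The 2 comparisons share the wild type libraries, so these values stand side by side and were not tested against each other.

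**Figure D2:**
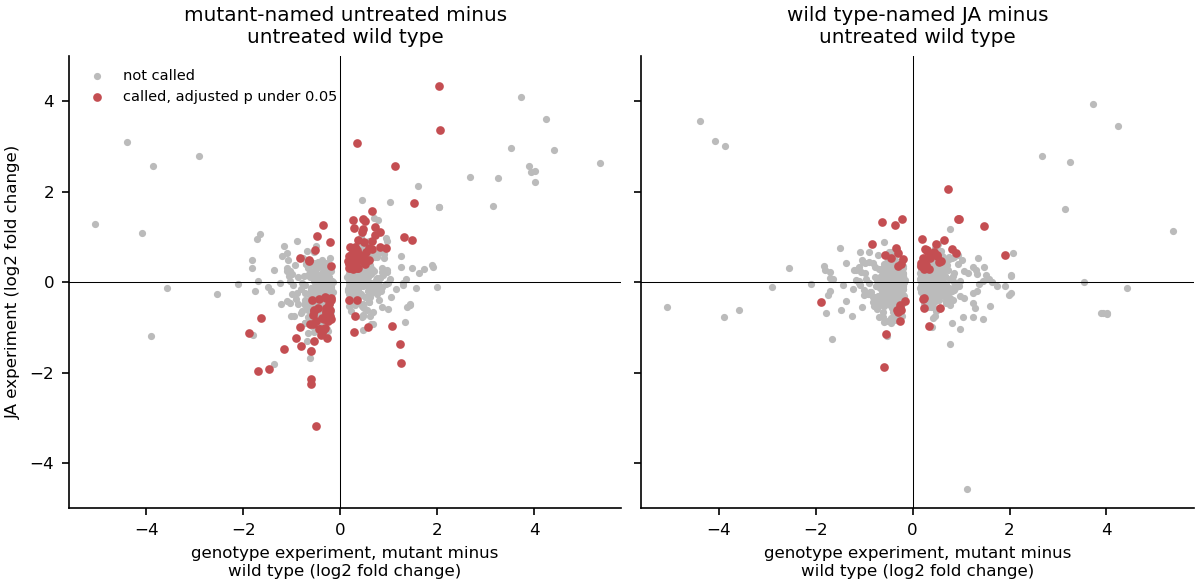
Log2 fold changes of the 888 features called in the genotype experiment, plotted against their log2 fold changes in the JA experiment for the mutant-named untreated libraries (left) and the wild type-named JA libraries (right), both against untreated wild type; red points passed the test in the JA experiment. On the left 106 red points lie in the quadrants of equal sign and 16 in the others, and on the right 39 and 16.

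The same genes gave a value for every library. Over the 462 features higher in the mutant of the genotype experiment, the median difference from the mean of untreated wild type, in log2(CPM + 1), was 0.17, 0.20 and 0.18 in the mutant-named libraries. It was 0.19, 0.18 and 0.15 in the mutant JA libraries, and 0.05, 0.09 and 0.06 in the wild type-named JA libraries. Over the 426 features lower in the mutant it was -0.22, -0.19 and -0.27 in the mutant-named libraries, -0.21, -0.23 and -0.22 in the mutant JA libraries, and -0.03, -0.00 and -0.06 in the wild type-named JA libraries. The ranges of the mutant-named and mutant JA libraries overlapped, and no wild type-named JA library reached them for either set. The 462 and 426 features had medians of 0.38 and -0.42 in the genotype experiment itself. Among the 120 of these features inside the 3 identifier blocks described further on, the ranges of the mutant-named, mutant JA and wild type-named JA libraries overlapped in both directions. There the 56 higher features gave 0.06 to 0.23 in the mutant-named, -0.05 to 0.25 in the mutant JA and 0.05 to 0.08 in the wild type-named JA libraries. The 64 lower features gave -0.15 to -0.00, -0.10 to -0.03 and -0.07 to 0.05 in the same order.

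**Figure D3:**
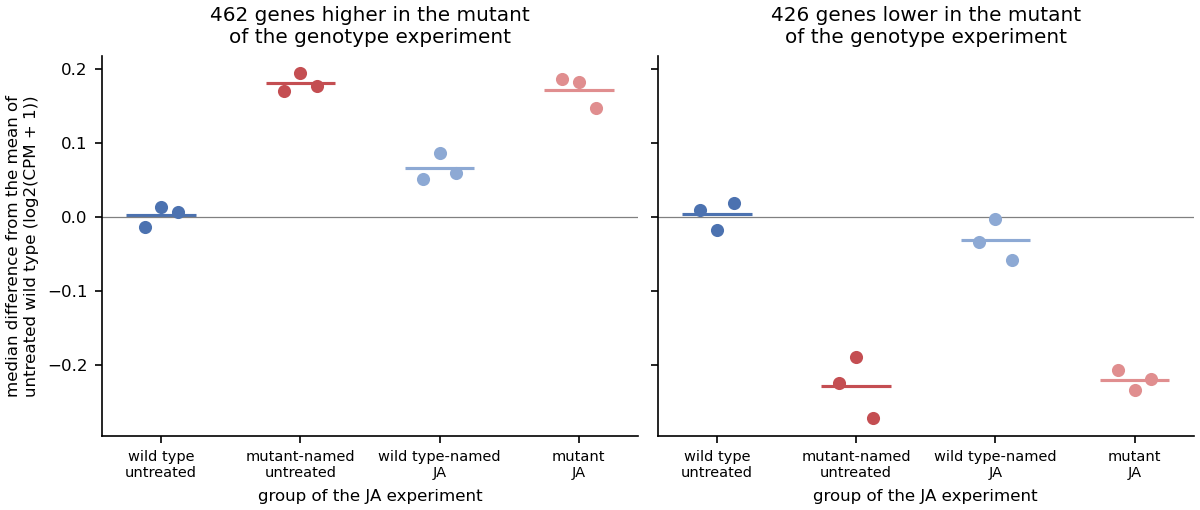
Median difference from the mean of untreated wild type for the features higher (left, 462) and lower (right, 426) in the mutant of the genotype experiment, with 1 point per library of the JA experiment and a line at the mean of 3. The mutant-named untreated and mutant JA libraries lie together, at 0.15 to 0.20 on the left and -0.27 to -0.19 on the right, away from the groups named wild type.

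The genes named next were chosen because they were called alike, without overlap, in both experiments, so their agreement between the mutant-named comparison and the genotype experiment is a description. The levels of the mutant JA and wild type-named JA libraries were not a criterion of the choice. These libraries did share the fit, with its filter, scaling and estimate of spread. Zm00001d042279 was at 16.9, 12.4 and 15.2 CPM in wild type and 44.1, 53.6 and 54.5 CPM in the mutant-named libraries. The genotype experiment gave 23.2, 31.2 and 28.5 CPM in wild type and 85.0, 71.9 and 81.0 CPM in the mutant. The groups did not overlap in either experiment, with log2 fold changes of 1.75 ± 0.19 (edgeR adjusted p = 7.1e-05) and 1.52 ± 0.10 (adjusted p = 8.9e-09). It stood at 38.6 to 46.9 CPM in the mutant JA libraries and at 15.1 to 19.4 CPM in the wild type-named JA libraries. Zm00001d020949 was at 0, 2.82 and 0.584 CPM in wild type and 8.35, 8.94 and 20.9 CPM in the mutant-named libraries, with a log2 fold change of 3.36 ± 0.70 (edgeR adjusted p = 0.011), and it kept its call in 3 of the 6 leave-one-out fits. Its log2 fold change in the genotype experiment was 2.07 ± 0.27 (edgeR adjusted p = 4.5e-05).

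The genes chosen as lower in both experiments are given in the same way. Zm00001d046558 was at 23.4, 22.0 and 31.0 CPM in wild type and 6.84, 5.96 and 6.95 CPM in the mutant-named libraries, a log2 fold change of -1.93 ± 0.32 (edgeR adjusted p = 0.0024). Levels in the genotype experiment were 23.8 to 26.7 CPM in wild type and 7.11 to 10.7 CPM in the mutant, a log2 fold change of -1.48 ± 0.16 (edgeR adjusted p = 3.8e-06). The ranges of the untreated wild type and mutant-named libraries lay close to those of wild type and mutant in the genotype experiment. Zm00001d042291 was at 33.9, 28.2 and 31.5 CPM in wild type and 13.7, 14.9 and 3.48 CPM in the mutant-named libraries, where replicate 3 was far below the others. Its log2 fold changes were -1.48 ± 0.30 (edgeR adjusted p = 0.01) and, in the genotype experiment, -1.17 ± 0.14 (adjusted p = 1e-05). Neither Zm00001d046558 nor Zm00001d042291 was called between wild type-named JA and untreated wild type, with edgeR adjusted p of 0.30 and 0.96. In the wild type-named JA libraries Zm00001d046558 was at 24.0, 11.7 and 14.3 CPM, so replicates 2 and 3 lay below every untreated wild type value. Its log2 fold change there was -0.61 ± 0.26. Zm00001d042291 was at 24.9, 36.0 and 35.9 CPM in the same libraries. Mutant JA against wild type-named JA did not call Zm00001d046558 (edgeR adjusted p = 0.14) but called Zm00001d042291 lower (adjusted p = 0.019).

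**Figure D4:**
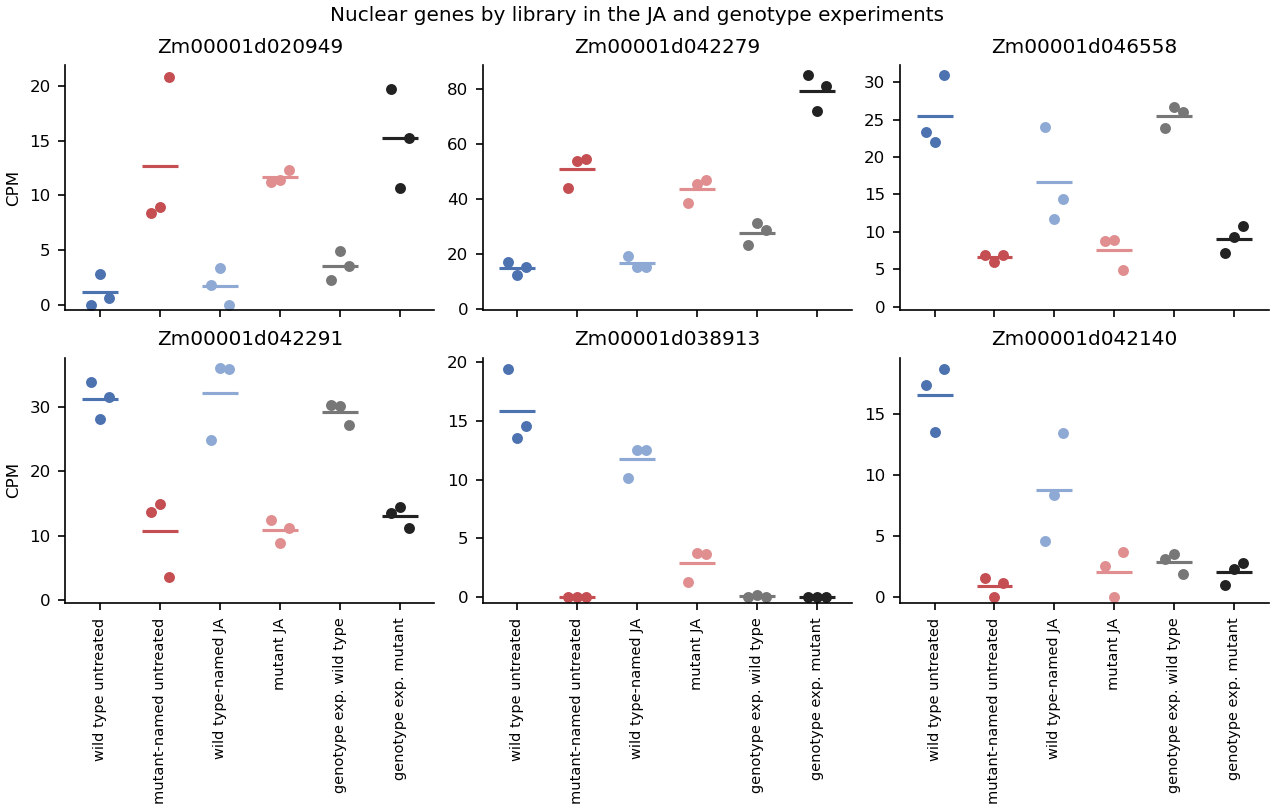
CPM of 6 nuclear genes in every library, with 1 point per library and a line at the mean of 3, for the 4 groups of the JA experiment by deposited name and the 2 of the genotype experiment. For Zm00001d042279 the 3 groups named mutant lie above the groups named wild type; Zm00001d038913 is near 0 in both groups of the genotype experiment.

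The pair of groups that share no library with this comparison gave a further reference. Mutant JA against wild type-named JA is by name the same genotype difference under JA, and by title the JA response of the mutant. By field it is mutant with JA against wild type without JA, which is also the field reading of the mutant-named comparison. It called 328 features, or 2.91%, of which 139 (1.23%) were higher and 189 (1.68%) lower. Of these, 131 were also called between mutant-named and wild type libraries, 124 in the same direction and 7 in the opposite one. The 124 made up 37.8% of that list and 21.2% of the list of the mutant-named comparison, beside 5.2% of all features called in the mutant-named comparison and 2.91% in this pair. Across the 328 features Pearson's r was 0.64, again as a description. Leaving out any 1 of its libraries gave 180 to 216 called features. Against the genotype experiment, 74 of the 888 features were called in the same direction in this pair and 12 in the opposite one, and the 74 became 48 without mutant replicate 2 of the genotype experiment.

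The share of genes called varied along the gene identifiers, which follow the order of genes along the chromosomes. For the genotype experiment the blocks of 1000 identifiers that start at Zm00001d040000, Zm00001d041000 and Zm00001d042000 had 18.4%, 18.3% and 17.9% of tested nuclear genes called, and no other block exceeded 11.2%. These blocks were chosen with that result known. In the mutant-named comparison 30 of 238 genes of the block at Zm00001d042000 were called, or 12.6%, the highest share of 55 blocks, and 20 of the 30 were lower. The block at Zm00001d041000 had 8 of 152 called and the block at Zm00001d040000 1 of 161. Outside the 3 blocks 4.79% were called, with up to 10.2% in a single block. The 39 genes called inside the 3 blocks were 7.08% of 551, and 3.25% to 4.75% were called inside them when 1 library was left out, the lowest without wild type replicate 1. All calls fell in those fits too, to 300 to 439 features from 586. The share called outside the blocks in those fits is not given here, so the 4.79% is no background for them.

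The block at Zm00001d042000 also led in mutant JA against wild type-named JA, with 25 of 238 genes called or 10.5%, and did not lead in wild type-named JA against untreated wild type, with 8 of 238. Of its 30 genes called in the mutant-named comparison, 17 were called in the same direction in the mutant JA pair, and 8 of the 29 tested in the genotype experiment were called there in the same direction and 4 in the opposite one. The block at Zm00001d040000 behaved otherwise, since 49 genes were called there in the genotype experiment, 35 of them were tested here, and none of those was called. With all 3 blocks left out, 94 features were called in the same direction as in the genotype experiment and 12 in the opposite one, and 76.0% of 768 had the same sign, beside 57.6% of all. Inside the 3 blocks 12 were called in the same direction and 4 in the opposite one, and 57.5% of 120 had the same sign, beside 52.0% of all features tested in both there.

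**Figure D5:**
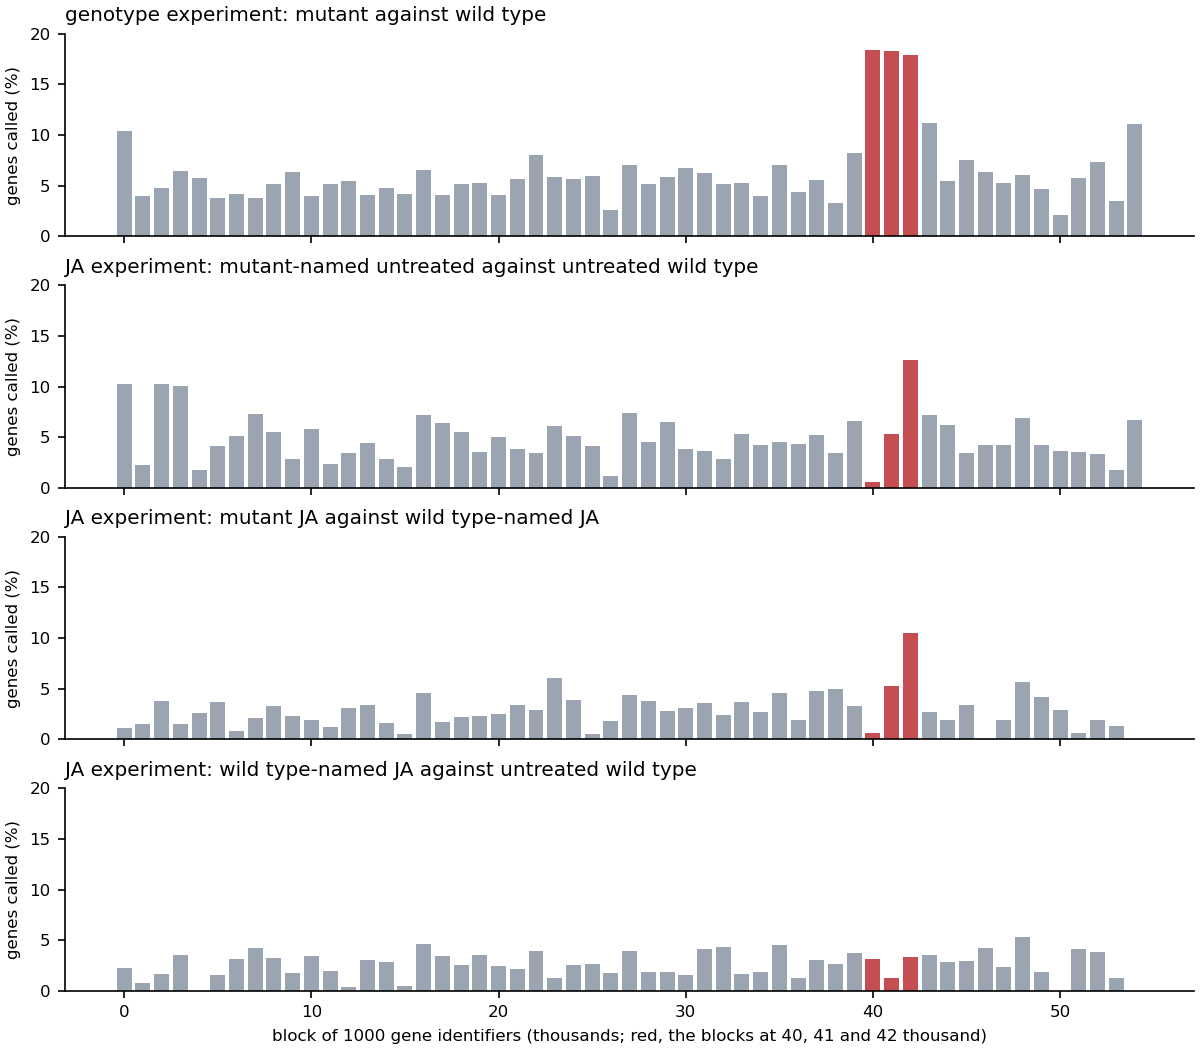
Percentage of tested nuclear genes called in each block of 1000 gene identifiers, for the genotype experiment and 3 comparisons of the JA experiment named as deposited; the blocks starting at Zm00001d040000, Zm00001d041000 and Zm00001d042000 are red. All 3 red bars stand out in the genotype experiment, while in both comparisons of mutant-named with wild type-named libraries the bar at Zm00001d042000 is the tallest.

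The mutant-named libraries nonetheless differed from the genotype experiment at many genes. A test of the difference between the 2 fold changes, in 1 fit of 12 libraries, called 337 of 17313 features, or 1.95%, of which 125 (0.722%) were positive and 212 (1.22%) negative. It called 212 to 222 features without wild type replicate 2 or 3 or any 1 of the mutant libraries of the genotype experiment. Of the 586 features called in the mutant-named comparison, 198 or 33.8% differed in size or direction from the genotype experiment by this test. Of the 106 features shared in direction, 15 did so. Both lists were chosen by fold changes that enter this test, so these shares are no measure of how far the experiments differ. For Zm00001d042279 the difference was 0.21 ± 0.21 on the log2 scale (edgeR adjusted p = 0.72). For rrn26 it was 0.75, with a log2 fold change of 0.06 ± 0.06 in the genotype experiment.

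The 2 groups with conflicting labels also differed directly. Mutant-named untreated minus wild type-named JA libraries gave 487 called features, or 4.32%, with 178 (1.58%) higher and 309 (2.74%) lower. The count was 311 without mutant-named replicate 1, 297 without wild type-named JA replicate 1 and 299 without its replicate 2. Of the mitochondrial genes orf147-b, an open reading frame, was called, at 25.1, 30.8 and 27.8 CPM in the mutant-named and 56.2, 46.9 and 47.5 CPM in the wild type-named JA libraries (log2 fold change -0.85, edgeR adjusted p = 0.0073). Zm00001d033824 was at 14.4, 13.9 and 15.1 CPM in the mutant-named libraries and had no count in any wild type-named JA library, which is at least 16.3-fold higher at the floor of 3 counts over the group (edgeR adjusted p = 0.00025). The genotype experiment had it at 5.15 to 5.76 CPM in wild type and 10.3 to 13.8 CPM in the mutant, a log2 fold change of 1.13 ± 0.21 (edgeR adjusted p = 0.0015). Zm00001d018819 had 1 count in the mutant-named libraries and 41 in the wild type-named JA libraries, a ratio of 38.5 with an exact 95% binomial interval of 6.53 to 1557 (edgeR adjusted p = 0.0082).

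By the fields, the mutant-named and the mutant JA libraries would be the same condition, and so would the untreated wild type and the wild type-named JA libraries. Mutant JA minus mutant-named untreated libraries, a comparison added after the data had been seen, called 413 features, or 3.67%, with 232 (2.06%) higher and 181 (1.61%) lower. The count was 247 without mutant-named replicate 2, 242 without mutant JA replicate 2 and 269 without mutant JA replicate 3. The wild type-named JA libraries differed from untreated wild type at the 307 features given above. Zm00001d042279, Zm00001d046558 and Zm00001d042291 were not called between the mutant-named and the mutant JA libraries, with edgeR adjusted p of 0.65, 0.89 and 0.98. Their log2 fold changes there were -0.21 ± 0.18, 0.18 ± 0.45 and -0.05 ± 0.40. Other genes described above were called between these groups. The mutant JA libraries were higher at cox3 (log2 fold change 0.67 ± 0.15, edgeR adjusted p = 0.025) and orf147-b (0.71 ± 0.17, adjusted p = 0.033). They were also higher at Zm00001d038913 (4.86 ± 1.22, edgeR adjusted p = 0.047), with 7 counts against 0. ENSRNA049478891 was lower in them, at -3.38 ± 0.83 (edgeR adjusted p = 0.035). ENSRNA049478584 fell by 4.73 on the log2 scale between the same groups (edgeR adjusted p = 0.017).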

How the data were processed

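RNA was counted in 24 endosperm libraries, of which 18 were used: 12 of the JA experiment and 6 of the genotype experiment. The 6 IAA libraries were not used. The authors deposited whole-number counts for 46430 features, 1 file per library. Trimmomatic 0.39 and HISAT2 2.2.1 were used, per the submitters' processing notes. Not given in the sources used here are the counter, genome build, annotation, strand setting and any deduplication, so overlapping and antisense genes cannot be told apart.

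The 4 JA groups were fitted together and the genotype experiment alone, with edgeR 4.0.16 in R 4.3.3: TMM scaling, filterByExpr at a minimum count of 10, quasi-likelihood 2-sided tests and Benjamini-Hochberg adjustment over all features tested, called at adjusted p under 0.05. The fit gives each group its own mean and so does not depend on the disputed labels. SE is the absolute log2 fold change divided by the square root of F. Levels are CPM computed from TMM-adjusted totals. The median biological coefficient of variation was 0.146 in the JA and 0.0921 in the genotype experiment. Features named by a RefSeq table were organelle genes only; 12 of 21 gene lists had a matched member, and the 9 lists of nuclear genes had none.

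Genes named had an adjusted p under 0.05, at least 10 CPM in 1 group and groups that did not overlap, in order of fold change: up to 15 named and 2 unnamed in each direction, for the comparison itself, for features called alike in both experiments, and for the 2 conflicting groups. Other organelle genes are given as members of their class. The members, lists, blocks and tests were chosen with earlier results of these data known. On simulated counts most of the larger known changes were recovered, and recovery of the smaller ones is not given here. The share of false calls exceeded the nominal one in some of the simulations. No 2 libraries of a group were copies: chi-square per degree of freedom was 1.76 to 6.44 over 18 pairs. DESeq2 1.42.0, other scalings and filters, each library left out and a replicate block were alternatives.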

Additional observations from a re-analysis of the deposited data

Results flagged for a closer look

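The difference between mutant-named and wild type libraries of the JA experiment was not the same as that between mutant and wild type of the genotype experiment at 337 features, by edgeR's test of the difference itself at an adjusted p under 0.05. Among the genes named, this held for rrn26, the mitochondrial large-subunit ribosomal RNA, whose log2 fold change was higher by 0.75 in the JA experiment. It also held for Zm00001d042140, whose log2 fold change was lower by 3.66 there (a difference of -3.66); this gene had 3 counts over the mutant-named libraries, and its level in wild type was 13.5 to 18.7 CPM in the JA experiment and 1.87 to 3.50 CPM in the genotype experiment.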

How the results depend on the processing

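No result changed direction under any alternative run. Mutant-named against wild type gave 446 to 855 called features under the 8 planned refits on all 6 libraries, against 586; with a replicate block it was 446. No pairing by replicate number was seen for these groups: same-numbered libraries had deviations correlated at -0.42, 0.02 and -0.15, and no sample correlated best with its own number. For untreated wild type and wild type-named JA the values were 0.27, 0.37 and -0.04, with 2 best at their own number. So few values cannot decide whether the numbers mark a shared batch. The block moved the difference between experiments from 337 to 188 calls and the calls that wild type-named JA shares with the genotype experiment from 39 to 24. DESeq2 gave 560 calls in the genotype experiment, 522 for the difference, 11.1% called in the 3 identifier blocks of the genotype experiment and 1 plastid gene called. With no low-count filter, wild type-named JA had 475 calls and the difference 683; calls shared with the genotype experiment were 212 for mutant-named, 73 for wild type-named JA, 142 for the 2 conflicting groups and 118 for the mutant JA pair; the identifier blocks had 4.14%, 11.7%, 0.882%, 2.78% and 3.39% called in mutant-named, genotype, wild type-named JA, mutant JA pair and conflicting groups; and 8 mitochondrial, 141 ENSRNA and 9 plastid features were called higher. A filter of 10 CPM gave 24.1% in the blocks of the genotype experiment and 0 plastid genes. Without ENSRNA features the difference had 513 calls, shared calls were 177 for mutant-named and 128 for the conflicting groups, the blocks had 10.6%, and 9 mitochondrial and 12 plastid genes were called. Without the 50 most abundant features 1 plastid gene was called. With only the 6 libraries compared, the mutant JA pair had 214 calls, mutant JA against mutant-named 224, and plastid genes 0. Leaving out 1 library gave 300 to 439 calls for mutant-named, 701 to 841 for the genotype experiment, 154 to 194 for wild type-named JA, 297 to 374 for the conflicting groups, 180 to 216 for the mutant JA pair, 242 to 297 for mutant JA against mutant-named and 212 to 305 for the difference. Shared calls then ran from 69 to 88, 18 to 38, 52 to 64 and 48 to 61 for mutant-named, wild type-named JA, conflicting groups and mutant JA pair. The blocks had 3.25% to 4.75%, 13.3% to 15.0%, 0.510% to 1.55%, 4.25% to 5.25% and 3.58% to 5.11% in mutant-named, genotype, wild type-named JA, conflicting groups and mutant JA pair. Features called higher were 20 to 38 ENSRNA, 0 to 5 mitochondrial and 0 to 19 plastid. The cause of these changes was not tested. Of the genes named, apart from fits that left out a library, only ndhD lost its call under DESeq2 (adjusted p 0.062), and rrn18 with the block (0.052) and with only the 6 libraries compared (0.065). At this depth 2 of 114 plastid protein genes passed the low-count filter.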

Other observations

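The most abundant transcripts took part in the difference in both directions. The 50 features of highest mean CPM held 35.6% to 47.1% of the counts of a JA library, and 48 of them were nuclear gene models. Between mutant-named and wild type libraries 11 of these 50 were called higher and 10 lower by edgeR, where 5.2% of all features were called, with log2 fold changes from -1.03 to 1.64 and a median of 0.04. In the genotype experiment 6 of the 50 were called higher and 9 lower, where 6.19% of all features were called.

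The share of features called rose with their level. It was 2.40% of 5503 features under 20 CPM, 4.60% of 3263 features from 20 to 50 CPM, and 9.29% of 1937 features from 50 to 200 CPM, and 124 of 562 features above 200 CPM were called. The median absolute log2 fold change of the called features fell along the same bins, from 1.52 to 0.46.

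Of the 2 microRNA precursors tested, MIR396c was at 19.9, 10.7 and 6.42 CPM in wild type and 3.80, 5.96 and 8.11 CPM in the mutant-named libraries. The groups overlapped and the gene was not called (log2 fold change -1.13 ± 0.48, edgeR adjusted p = 0.21).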
